A study of Mus musculus with 4 samples.

Results

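The AP-1 transcription factors measured here were the 10 genes Fos, Fosb, Fosl1, Fosl2, Jun, Junb, Jund, Batf, Batf3 and Atf3, taken by name from the 53379 genes for which an expression value was given. RNA was sequenced from group 3 innate lymphoid cells (ILC3s) of the small intestinal lamina propria, and the question was how their transcripts differ when Brg1, the ATPase of the BAF chromatin remodelling complex encoded by Smarca4, is deleted. There were 2 libraries of each group. Both groups came from mixed bone marrow chimeras, in which equal numbers of bone marrow cells of each donor were given together to sub-lethally irradiated Rag2-/-Il2rg-/- mice, hosts that make no T, B or innate lymphoid cells of their own.

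The Brg1-sufficient ILC3s, called WT-ILC3s in the sample labels, came from Thy1.2 Rag1-/- Smarca4f/f donors and were sorted as Thy1.2high CD45low cells negative for Thy1.1. The Brg1-deficient ILC3s came from Thy1.1Thy1.2 Rag1-/- Smarca4f/f donors that also carried a Cre transgene and were sorted as Thy1.2high CD45low cells positive for Thy1.1. Cells were taken 6 to 7 weeks after transfer. All donors carried Rag1-/- and the floxed Smarca4 alleles, so the groups differed in the Cre transgene and also in the Thy1 allele, and these cannot be told apart. The libraries are described as biological duplicates, and the number of mice behind each is not stated. The age of the animals is not given in the sources used here.

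AP-1 is a dimer of basic leucine zipper (bZIP) proteins that binds short palindromic DNA sites. Jun proteins pair with each other or with Fos proteins, whereas Fos proteins need a Jun partner to bind DNA. Batf and Batf3 pair with Jun proteins too, lack a transactivation domain and cooperate with the interferon regulatory factors Irf4 and Irf8 at composite sites in lymphocytes and dendritic cells. Fos, Fosb, Jun, Junb and Atf3 are immediate early genes, transcribed within minutes of a stimulus through kinases of the MAP kinase cascade and through factors already bound to their promoters, such as CREB and serum response factor.

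Short promoter sequences of the members are shown because immediate early genes are induced through factors bound to their promoters, and because the members' levels are compared below. Whether the sequences shown take part in induction was not tested. RefSeq promoter windows of 250 bases before to 50 bases after a gene's start (build GRCm38.p6) were at hand for 9 of the 10 members, and Fosl1 had no entry. The letters TGACG, the core of the cAMP response element bound by CREB and ATF proteins, were searched on both strands. They stood in 5 of the 9 member windows and in 20.8% of all 32851 windows. Each is given below from 5′ to 3′ on the strand of the gene, with the core in capitals, and the bases given upstream are counted from the start of transcription to the first base of the core.
Fos, 66 bases upstream, chr12:85473813-85473839 (plus strand): gttccgcccagTGACGtaggaagtcca
Fos, 129 bases upstream, chr12:85473750-85473776 (plus strand): gggcgtagagtTGACGacagagcgccc
Fosb, 60 bases upstream, chr7:19310090-19310116 (minus strand): ggagttgcgggTGACGcaagcgcgggg
Junb, 106 bases upstream, chr8:84978839-84978865 (minus strand): cttcctgacagTGACGcgagccgcctc
Batf, 98 bases upstream, chr12:85686611-85686637 (plus strand): ttctaacttgtTGACGtttccgcccat
Atf3, 7 bases upstream, chr1:191183325-191183351 (minus strand, core read on the other strand as CGTCA): taatagcattaCGTCAgcctgggattg

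The Jun window held TGACATCA, an AP-1-like element, 45 bases upstream of its start, and this motif was searched after the Jun sequence had been seen. Its letters were present in 3.62% of all windows on either strand and in no other member window. The element is shown for its place in the gene whose level differed little between the groups.
Jun, 45 bases upstream, chr4:95052249-95052278 (minus strand): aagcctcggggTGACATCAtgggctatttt
The consensus AP-1 site TGANTCA, where N is any base, was in 7.81% of all windows and in 0 of the 9 member windows. The full cAMP response element TGACGTCA was in 1.79% of all windows and in 0 of the 9. TGACGTCA contains the shorter core TGACG, so those counts overlap. The TATA box letters TATAAA on the gene's strand were in 8.32% of all windows and in those of Fos and Junb. In Fos they began 33 bases upstream of the start of transcription. In Junb they began at the start of transcription itself, as set for that window. The Atf3 window belongs to a start at position 191183333 of chromosome 1, inside the gene as GENCODE M21 annotates it. The windows of Batf3 (start 191098414), Fosl2 (start 32136472), Batf (start 85686720) and Fosb (start 19310045) are also set on starts inside the annotated genes. Those of Jund (start 70697739) and Junb (start 84978748) are set on starts upstream of the annotated genes. The counts of the 9 windows and the bases given upstream hold for these starts, and other starts were not searched. A match of letters is a description of the sequence and does not show that a factor was bound.

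Values were deposited as FPKM, fragments scaled by transcript length and library total, so genes can be compared within a library. The deposited values were nearly the same in the 4 libraries once sorted, with the same highest value of 21159.06 FPKM, so levels are relative to the other genes of a library and a difference in total RNA would not appear. Smarca4, the deleted gene, stood at 17.1 and 16.7 FPKM in Brg1-sufficient and 9.98 and 9.03 FPKM in Brg1-deficient ILC3s (log2 fold change -0.77, adjusted p = 0.153 from limma). All 12 ILC3 markers were detected in all libraries. Il23r, which encodes a chain of the interleukin 23 receptor, was at 209 to 268 FPKM over the 4 libraries.

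The 10 genes lay in 3 ranges of expression. Fos, Junb and Jun stood at 1938 to 4026 FPKM and among the 45 highest genes of every library. Atf3 and Fosb stood at 327 to 903 FPKM. Batf, Batf3, Fosl2, Jund and Fosl1 stood at 6.42 to 155 FPKM. Together the 10 genes made up 1.09% and 1.5% of the summed FPKM in Brg1-sufficient libraries and 1.34% and 1.54% in Brg1-deficient libraries. By the mean of all 4 libraries the order was Fos (3021 FPKM), Junb (2597), Jun (2151), Atf3 (689), Fosb (566), Batf (127), Batf3 (87.6), Fosl2 (47.2), Jund (39.8) and Fosl1 (10.6). Fos was above Junb in 2 of the 4 libraries, so that pair has no settled order. Batf3 was above Fosl2, and Fosl2 above Jund, in 3 of 4 libraries. Each other neighbouring pair kept its order in all 4 libraries. The paper describes digesting the intestine with enzymes and sorting the cells before RNA was extracted. The part of these steps in the levels was not tested.

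**Figure D1:**
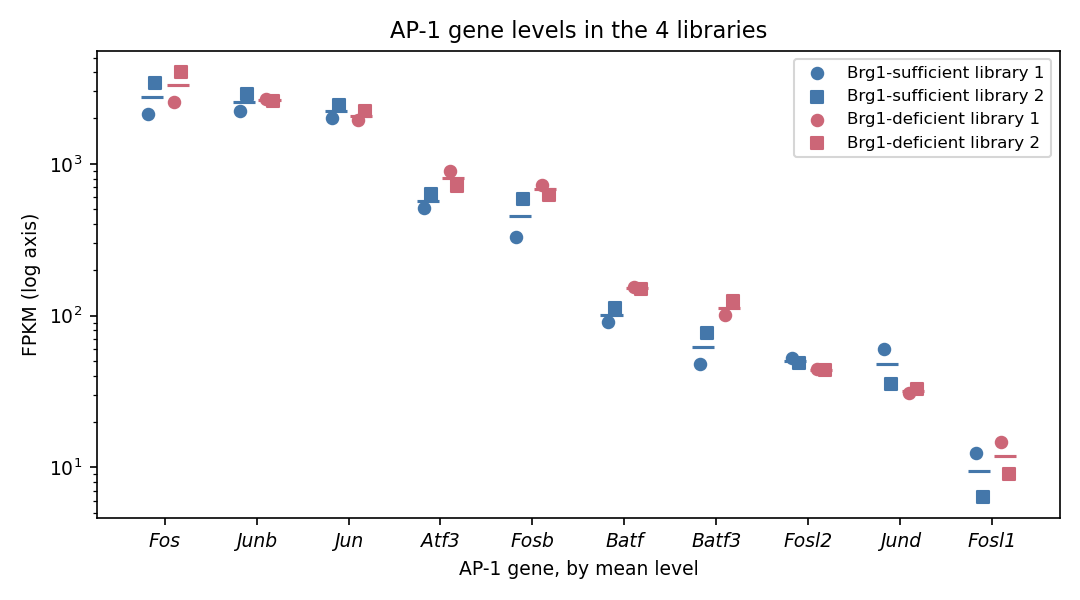
FPKM of the 10 AP-1 genes on a log axis, ordered by mean level, with 1 point per library (circles for library 1, squares for library 2, blue for Brg1-sufficient, red for Brg1-deficient) and a bar at each group's mean. Fos, Junb and Jun lie above 1938 FPKM in every library, and the points of the groups are separate for Batf, Batf3, Atf3 and Fosb, which were higher in Brg1-deficient libraries, and for Fosl2 and Jund, which were lower.

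None of the 10 genes passed an adjusted p under 0.05 between Brg1-deficient and Brg1-sufficient ILC3s. The test was limma on log2(FPKM + 1), its p adjusted over 14739 genes by the Benjamini-Hochberg method, and the members' adjusted p ran from 0.223 (Batf) to 0.922 (Junb). Over all genes tested, 0.224% were called lower and 0.0814% higher. At an unadjusted p under 0.05, 3 members (Batf, Batf3 and Atf3) were higher and 0 were lower, beside 6.12% of all genes tested that were higher and 6.47% that were lower. Both libraries of the Brg1-deficient group lay above both of the other in 4 members (Batf, Batf3, Atf3 and Fosb) and below them in 2 (Fosl2 and Jund), beside 24.4% and 20.2% of all genes tested. The median log2 fold change of the members was 0.29 and that of all genes tested was 0.03. The members' median was 0.07 without the first Brg1-sufficient library and 0.18 without the first Brg1-deficient library. Because 1 is added to each value, low genes show less than their full fold change on this scale.

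**Figure D2:**
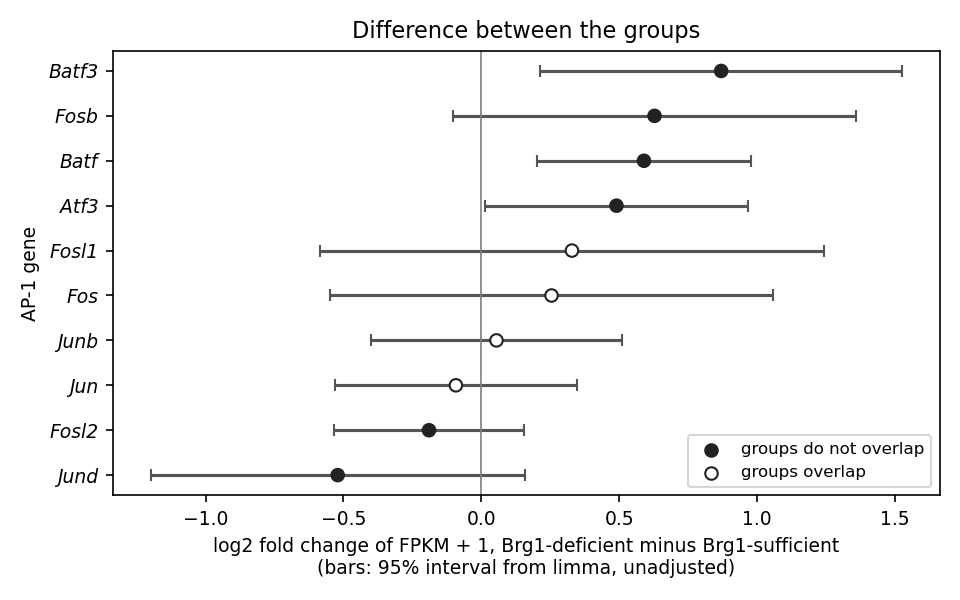
Log2 fold change of FPKM + 1 for each AP-1 gene, Brg1-deficient minus Brg1-sufficient, with the unadjusted 95% interval from limma (2 libraries per group). Filled points mark genes whose groups do not overlap. The intervals of Batf3, Batf and Atf3 lie above 0, and those of the other 7 genes include 0.

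The Batf and Atf3 group held the 3 members with the smallest p. Batf lies on chr12:85686669-85709087 (GRCm38, plus strand), and its protein is a partner of Jun proteins that is required in T helper 17 cells. It stood at 91.3 and 112 FPKM in Brg1-sufficient and 155 and 150 FPKM in Brg1-deficient ILC3s. The groups did not overlap, and the Brg1-deficient libraries were the closer pair, with means of 102 ± 14.5 and 153 ± 3.85 FPKM (SD, n = 2 each). The ratio of the means was 1.5, and the log2 fold change was 0.59 (SE, the standard error, 0.154, 95% interval 0.20 to 0.98, unadjusted p = 0.0107, adjusted p = 0.223 from limma).

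Batf3 lies on chr1:191097847-191108945 (plus strand) and is best known as the factor required for cross-presenting dendritic cells. It stood at 47.8 and 77.3 FPKM in Brg1-sufficient and 101 and 125 FPKM in Brg1-deficient ILC3s. Both Brg1-deficient values were above both others, although the Brg1-sufficient libraries themselves differed 1.62-fold. The means were 62.5 ± 20.9 and 113 ± 17.0 FPKM (SD, n = 2 each), a ratio of 1.8. Its log2 fold change of 0.87 (SE 0.261, 95% interval 0.21 to 1.53, unadjusted p = 0.0185, adjusted p = 0.269 from limma) was the highest of the 10. Without the first Brg1-sufficient library this value was 0.53, and without the second it was 1.21.

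Atf3 lies on chr1:191170296-191218039 (minus strand) and encodes a stress-induced factor that, as a homodimer, represses transcription. It stood at 512 and 633 FPKM in Brg1-sufficient and 903 and 710 FPKM in Brg1-deficient ILC3s. The groups did not overlap, but the gap between them, from 633 to 710 FPKM, was smaller than the distance between the Brg1-deficient libraries. The means were 573 ± 85.1 and 806 ± 137 FPKM (SD, n = 2 each), a ratio of 1.41. The log2 fold change was 0.49 (SE 0.189, 95% interval 0.01 to 0.97, unadjusted p = 0.0453, adjusted p = 0.382 from limma). Without the first Brg1-deficient library it was 0.32.

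Batf3 and Atf3 are neighbours in the genome, 61350 bases apart with 2 genes between them, Fam71a and Gm38161. Neither of the genes between had an unadjusted p under 0.05 in limma, while Gm38161 was lower without overlap (2.2 and 1.15 FPKM, then 0.68 and 0.55 FPKM) and Fam71a overlapped. Fos and Batf lie 209395 bases apart on chromosome 12, and 0 of the 4 genes between them reached the expression limit for testing. The summed FPKM of Batf, Batf3 and Atf3 was 652 and 822 in Brg1-sufficient and 1159 and 984 in Brg1-deficient libraries. This sum did not overlap between the groups (exact two-sided permutation p = 0.333, the smallest that 2 libraries against 2 allow), and Atf3 made up most of it.

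Of the Fos proteins, Fos and Fosl1 overlapped between the groups and Fosb and Fosl2 did not. Fos lies on chr12:85473890-85477273 (plus strand) and encodes the partner in the classic Fos and Jun dimer. It stood at 2122 and 3390 FPKM in Brg1-sufficient and 2545 and 4026 FPKM in Brg1-deficient ILC3s. The groups overlapped, and the second library was 1.6 times the first in the Brg1-sufficient and 1.58 times in the Brg1-deficient group. The means were 2756 ± 897 and 3286 ± 1047 FPKM (SD, n = 2 each), and the log2 fold change was 0.26 (95% interval -0.55 to 1.06, adjusted p = 0.777 from limma). It turned to -0.08 without the first Brg1-sufficient library and to -0.08 without the second Brg1-deficient library.

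Fosb lies on chr7:19302696-19310051 (minus strand) and encodes an early Fos protein with a long-lived splice form, ΔFosB. It stood at 327 and 583 FPKM in Brg1-sufficient and 729 and 626 FPKM in Brg1-deficient ILC3s. The groups did not overlap, and the first Brg1-sufficient library was far below the other 3. The means were 455 ± 181 and 678 ± 73.3 FPKM (SD, n = 2 each), and the log2 fold change was 0.63 (SE 0.291, 95% interval -0.10 to 1.36, unadjusted p = 0.0789, adjusted p = 0.464 from limma). It was 0.21 without the first Brg1-sufficient library and 1.04 without the second.

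Fosl1 and Fosl2 encode Fra-1 and Fra-2, Fos proteins without the strong transactivation domain of Fos. Fosl1, on chr19:5447547-5455946, was the lowest member, at 12.4 and 6.42 FPKM in Brg1-sufficient and 14.6 and 9.08 FPKM in the Brg1-deficient group. Its first library was the higher in both groups, the reverse of Fos, and the groups overlapped (log2 fold change 0.33, 95% interval -0.59 to 1.24, adjusted p = 0.741 from limma). Its value turned to -0.10 without the second Brg1-sufficient library. Fosl2, on chr5:32135801-32157842, was at 52.3 and 48.5 FPKM in Brg1-sufficient and 44.3 and 43.7 FPKM in the Brg1-deficient group. This was the smallest spread within groups of any member, and both Brg1-deficient values were lower (log2 fold change -0.19, 95% interval -0.54 to 0.16, adjusted p = 0.622 from limma).

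Jun and Junb overlapped between the groups, with the smallest log2 fold changes of the 10. Jun, on chr4:95049034-95052222 (minus strand), encodes the most active transactivator of the Jun proteins and the main substrate of the JNK kinases. It stood at 1992 and 2455 FPKM in Brg1-sufficient and 1938 and 2221 FPKM in Brg1-deficient ILC3s. The second library was the higher in both groups, and the log2 fold change between them was -0.09 (95% interval -0.53 to 0.35, adjusted p = 0.857 from limma). It turned to 0.06 without the second Brg1-sufficient library and to 0.0061 without the first Brg1-deficient library.

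Junb, on chr8:84974484-84978718 (minus strand), encodes a Jun protein with weaker transactivation that is needed for T helper 17 cells. It stood at 2221 and 2896 FPKM in Brg1-sufficient and 2665 and 2606 FPKM in Brg1-deficient ILC3s. Both Brg1-deficient values lay between the Brg1-sufficient ones, and the log2 fold change was 0.06 (95% interval -0.40 to 0.51, adjusted p = 0.922 from limma). It turned to -0.14 without the first Brg1-sufficient library. The interval still includes a difference of the size seen within the Brg1-sufficient group, where the second library was 1.3 times the first.

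Jund, on chr8:70698949-70700616 (plus strand), encodes a Jun protein that is usually expressed without a stimulus. It stood at 60.3 and 35.2 FPKM in Brg1-sufficient and 31.0 and 32.7 FPKM in Brg1-deficient ILC3s. The groups did not overlap, but 1 Brg1-sufficient library was close to the Brg1-deficient ones and the first was far above. The means were 47.7 ± 17.8 and 31.8 ± 1.2 FPKM (SD, n = 2 each), and the log2 fold change was -0.52 (95% interval -1.2 to 0.16, unadjusted p = 0.107, adjusted p = 0.51 from limma). It was -0.14 without the first Brg1-sufficient library and -0.90 without the second.

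Summed over subfamilies, the Jun proteins came to 4273 and 5386 FPKM in Brg1-sufficient and 4634 and 4859 FPKM in Brg1-deficient libraries, and both Brg1-deficient sums lay between the others (exact two-sided permutation p = 1.0). The Fos proteins summed to 2514 and 4028 FPKM in Brg1-sufficient and 3333 and 4705 FPKM in Brg1-deficient libraries, which overlapped (exact two-sided permutation p = 0.667). The ratio of summed Fos to summed Jun proteins was 0.588 and 0.748 in Brg1-sufficient and 0.719 and 0.968 in Brg1-deficient libraries, overlapping as well (exact two-sided permutation p = 0.667). Within the 10 genes, Batf, Batf3 and Atf3 took 8.76% and 8.03% of the summed FPKM in Brg1-sufficient libraries and 12.7% and 9.33% in Brg1-deficient libraries. The sign of the log2 ratio was lost when 1 library was left out for the Jun proteins (from -0.03 to 0.15 without the second Brg1-sufficient library and 0.0088 without the first Brg1-deficient library) and for the Fos proteins (from 0.30 to -0.0032 without the first Brg1-sufficient library).

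**Figure D3:**
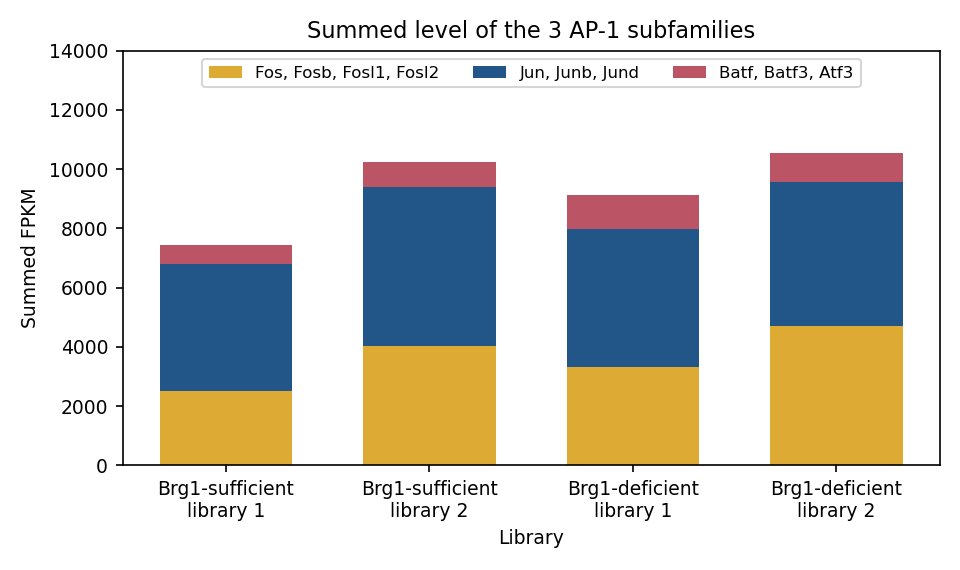
Summed FPKM of the 10 AP-1 genes in each library, stacked by subfamily (Fos, Fosb, Fosl1 and Fosl2 in yellow, Jun, Junb and Jund in blue, Batf, Batf3 and Atf3 in red). The blue stretch is 4273 to 5386 FPKM in all libraries, the yellow one is larger in the second library of each group, and the red one is larger in both Brg1-deficient libraries.

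Some members overlap other genes on the opposite strand, and the sources do not say whether reads were assigned by strand. Junb overlaps Prdx2, which was at 126 to 152 FPKM, Fosl1 overlaps Ccdc85b (4.84 to 6.04 FPKM), and Jun overlaps Junos (1.64 to 3.49 FPKM). For Fosl1, whose own level was 6.42 to 14.6 FPKM, the value is uncertain for this reason. The overlapping genes of Jund and Atf3 were listed at 0 in all 4 libraries.

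By profile over the 4 libraries, the genes most like Batf3, the member with the highest log2 fold change, were Tnf, Hist1h3a and Cep97 among 8088 protein-coding genes with a mean FPKM above 5. Likeness was the Euclidean distance between centred log2(FPKM + 1) values, and these 3 stood at 0.0579 to 0.0688. Tnf, the tumour necrosis factor gene, was at 138 and 232 FPKM in Brg1-sufficient and 288 and 353 FPKM in the Brg1-deficient group. The genes most like Jund, the member with the lowest log2 fold change, were Cnnm4, Slc39a13 and Maff at distances of 0.0521 to 0.0853. All 3 shared with Jund a high first Brg1-sufficient library and 3 nearly equal others, as in Maff at 57.3 and then 32.9, 31.4 and 31.4 FPKM. These distances rest on 4 points.

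The kinases that activate AP-1 were compared next. Of 29 genes of the MAP kinase cascade, 27 were tested and 0 were called in either direction, with a median log2 fold change of -0.01. At an unadjusted p under 0.05, 2 were lower and 2 higher, beside 6.47% and 6.12% of all genes tested. Mapk9, which encodes JNK2, a kinase of Jun, stood at 15.0 and 12.2 FPKM in Brg1-sufficient and 3.52 and 5.42 FPKM in Brg1-deficient ILC3s. The groups were far apart, and the log2 fold change was -1.43 (SE 0.247, unadjusted p = 0.00166, adjusted p = 0.107 from limma), the lowest of the list. Mapk8, which encodes JNK1 and was looked at after the value of Mapk9 had been seen, was at 15.8 and 13.5 FPKM and then 21.9 and 17.8 FPKM (log2 fold change 0.41, adjusted p = 0.452). The other genes named by size were Mapk11 (p38β, 1.07), Mapk7 (ERK5, 0.63) and Braf (a RAF kinase, -0.57), by log2 fold change, with adjusted p of 0.36, 0.67 and 0.543 from limma. Mapk11 was at or below 1.46 FPKM in every library.

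Among 20 genes for activators, partners and turnover of AP-1 factors, 19 were tested and 0 were called, with a median log2 fold change of 0.10. At an unadjusted p under 0.05, 2 were lower and 0 higher, beside 6.47% and 6.12% of all genes tested. Irf8, the interferon regulatory factor with which Batf and Batf3 bind composite sites, stood at 35.1 and 58.8 FPKM in Brg1-sufficient and 19.2 and 15.1 FPKM in Brg1-deficient ILC3s. Its direction was opposite to that of Batf and Batf3, and its log2 fold change was -1.36 (SE 0.281, unadjusted p = 0.0038, adjusted p = 0.147 from limma). Irf4, the other such partner, was too low to be tested, at 0.62 and 1.25 FPKM and then 1.18 and 0.62 FPKM. The other genes named by size were Elk1, a serum response factor partner, Mkl1, a coactivator of that factor, and Mef2c, an activator of Jun. Their log2 fold changes were 0.62, 0.48 and -0.57, and their adjusted p were 0.407, 0.423 and 0.323 from limma.

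Of 32 other bZIP genes near AP-1, 27 were tested and 0 were called, with a median log2 fold change of 0.05. At an unadjusted p under 0.05, 2 were higher and 0 lower, beside 6.12% and 6.47% of all genes tested. The 2 higher ones were Tef and Dbp, circadian PAR bZIP factors. Dbp was at 13.3 and 13.97 FPKM in Brg1-sufficient and 20.5 and 18.5 FPKM in Brg1-deficient libraries (log2 fold change 0.48, adjusted p = 0.321 from limma). Tef was at 2.47 and 2.96 FPKM and then 4.14 and 5.29 FPKM (log2 fold change 0.62, adjusted p = 0.385). Maff, a small Maf protein, and Nfe2, an erythroid factor that was at most 1.49 FPKM, had log2 fold changes of -0.46 and -0.39.

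Of 22 genes with AP-1 sites known from textbooks, 18 were tested. Of these, 2 were called higher and 0 lower, beside 0.0814% and 0.224% of all genes tested. At an unadjusted p under 0.05, 5 were higher and 2 were lower, beside 6.12% and 6.47% of all genes tested. The median log2 fold change was -0.03. This median was 0.39 when the expression limit was a mean FPKM of 5 and 0.25 without the first Brg1-sufficient library. Il2, the T cell growth factor gene, rose from 4.58 and 7.98 FPKM in Brg1-sufficient libraries to 59.3 and 59.6 FPKM in Brg1-deficient libraries (log2 fold change 3.09, SE 0.256, adjusted p = 0.0383 from limma). Il17f, a cytokine gene of the interleukin 17 family, rose from 555 and 421 FPKM to 2279 and 1852 FPKM (log2 fold change 2.08, SE 0.199, adjusted p = 0.0386 from limma). In each, both Brg1-deficient libraries were several times above both others. The call of both was lost without the filter on low FPKM, without the trend in limma and when any library was left out.

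The same list held genes far on the other side. Il4 and Il5, cytokine genes of group 2 cells, had log2 fold changes of -2.92 and -2.80 and adjusted p of 0.0917 and 0.367 from limma, and they are named here after their values were seen. Il4 was at 13.4 and 5.18 FPKM in Brg1-sufficient and 0.26 and 0.24 FPKM in Brg1-deficient libraries. Il5 was at 24.8 and 1.64 FPKM and then 0.32 and 0.06 FPKM, so the first Brg1-sufficient library was far above the second. Csf2, which encodes GM-CSF and was also looked at after its value was seen, was at 245 and 199.7 FPKM in Brg1-sufficient and 564 and 638 FPKM in Brg1-deficient libraries (log2 fold change 1.44, adjusted p = 0.0572). None of this measures AP-1 binding.

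Immediate early genes other than AP-1 had a median log2 fold change of 0.26, beside 0.29 for the AP-1 genes. Without the first Brg1-sufficient library these medians were 0.16 and 0.07. All 20 were tested and 0 were called. At an unadjusted p under 0.05, 2 were lower and 2 higher, against 6.47% and 6.12% of all genes tested. Without overlap of the groups, 9 were higher and 2 lower, against 24.4% and 20.2% of all genes tested. Zfp36, which encodes an mRNA decay factor, was at 878 and 1712 FPKM in Brg1-sufficient and 1712 and 2255 FPKM in Brg1-deficient libraries (log2 fold change 0.68, adjusted p = 0.499 from limma), and like Fos it was higher in the second library of each group. Egr3, an early zinc finger factor at 1.15 to 3.73 FPKM, differed by 0.75 on the log2 scale (adjusted p = 0.419). The genes with the largest negative values were Dusp2, a MAP kinase phosphatase (-1.10, adjusted p = 0.368), and Myc (-0.85, adjusted p = 0.171), which was at 10.5 and 8.97 FPKM and then 5.04 and 4.83 FPKM.

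Heat shock genes, like several AP-1 genes, are induced in stressed cells. All 12 were tested and 0 were called. The median log2 fold change was -0.08, and 3 were above 0. At an unadjusted p under 0.05, 3 were lower and 0 higher, against 6.47% and 6.12% of all genes tested. Without overlap, 6 were lower and 1 higher, against 20.2% and 24.4% of all genes tested. Hspa1a, an inducible Hsp70 gene, was at 4262 and 4652 FPKM in Brg1-sufficient and 2606 and 3306 FPKM in Brg1-deficient libraries (log2 fold change -0.60, adjusted p = 0.267 from limma). Hspa1b (-0.81, adjusted p = 0.266) is a near-identical copy, so the split of reads between both is uncertain. Dnajb1, a cochaperone of Hsp70, stood at 1812 FPKM in both Brg1-sufficient and 1173 and 1465 FPKM in the Brg1-deficient libraries (log2 fold change -0.47, adjusted p = 0.345). For Hspb1, a small heat shock protein gene, the log2 fold change was -0.65 (adjusted p = 0.456).

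**Figure D4:**
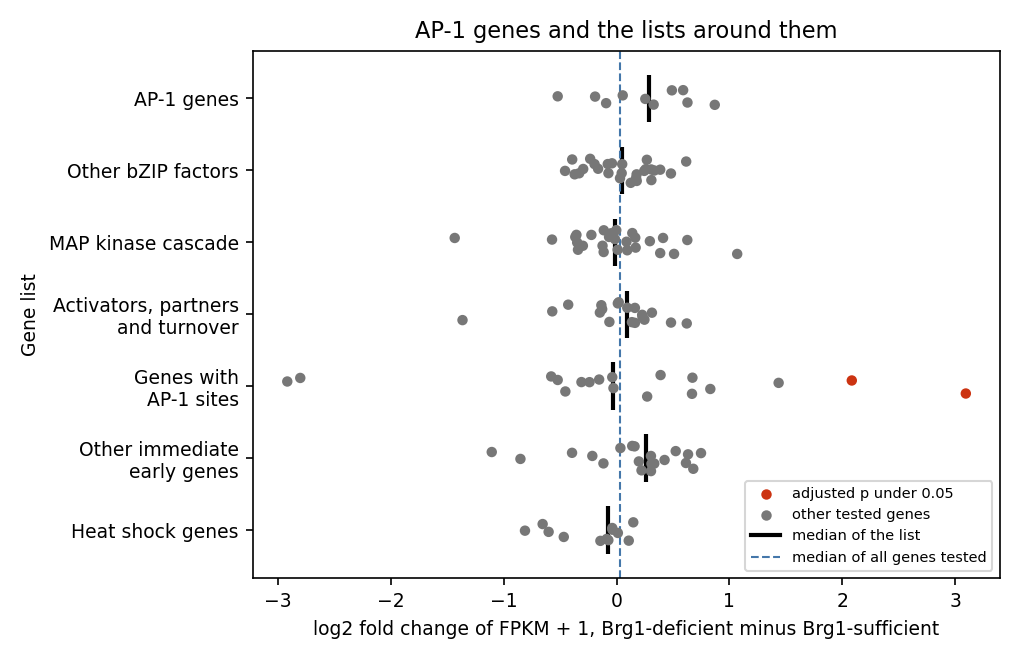
Log2 fold change of FPKM + 1 (Brg1-deficient minus Brg1-sufficient) of each tested gene in the AP-1 list and the 6 lists around it, with black bars at list medians and a dashed line at the median of all genes tested, 0.03. The medians of the AP-1 genes and the other immediate early genes are 0.29 and 0.26, and the 2 red points with an adjusted p under 0.05 are Il2 and Il17f.

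Marker genes of other cells were read in the same libraries, since in bulk RNA a smaller number of cells of a type and less RNA per cell cannot be told apart. Of the ILC1 and NK cell markers, 6 of 10 were lower and 2 higher without overlap (20.2% and 24.4% of all genes tested), while their sums were 297 to 470 FPKM in Brg1-sufficient and 465 to 654 FPKM in Brg1-deficient libraries. Gzma, at 50.8 and 103 FPKM and then 397 and 218 FPKM, and Klrk1, at 105 and 113 FPKM and then 165 and 190 FPKM, were the 2 higher ones. Ncr1, which encodes the NKp46 that a subset of ILC3s also carries, was at 31.3 and 35.5 FPKM in Brg1-sufficient and 5.37 and 6.02 FPKM in the Brg1-deficient group. For this subset the paper gives a count of cells by flow cytometry. In the small intestine of mixed chimeras, NKp46-positive cells were a smaller share of Brg1-deficient than of Brg1-sufficient ILC3s. The mix of ILC3 subsets behind the AP-1 values therefore differed between the groups in the paper's own measurement. ILC2 markers were lower in 9 of 10 genes without overlap, with sums of 379 and 213 FPKM in Brg1-sufficient and 116 and 141 FPKM in Brg1-deficient libraries. The other ILC2 marker, Hpgds, was higher without overlap, at 2.31 and 6.61 FPKM and then 20.6 and 19.9 FPKM. Areg and Hpgds were lower in the first Brg1-sufficient library than in the second. The other ILC2 markers were higher in the first, as in Ccr8 at 51.7 and 8.41 FPKM and Il5 at 24.8 and 1.64 FPKM. The sums of 7 T cell markers were 91.0 and 28.0 FPKM and then 9.55 and 24.2 FPKM. Those of 5 B cell markers were 9.9 and 10.7 FPKM and then 2.54 and 1.69 FPKM. No marker of any list was at 0 in all libraries. The part of these differences in the AP-1 values was not tested.

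Beside Batf3, 3 of 6 dendritic cell markers were lower and 0 higher without overlap, against 20.2% and 24.4% of all genes tested. Their sums of 37.5 to 45.4 FPKM in Brg1-sufficient and 11.4 to 16.6 FPKM in Brg1-deficient libraries were mostly Zbtb46, at 40.4 and 31.1 FPKM and then 12.2 and 7.51 FPKM. Xcr1 and Clec9a, which mark the dendritic cells that depend on Batf3, were at 2.68 to 3.74 FPKM and 0.04 to 1.22 FPKM, and the groups overlapped for Clec9a. Beside Fos, the macrophage gene Lyz2 was higher in the second library of each group, at 84.1 and 203 FPKM in Brg1-sufficient and 64.4 and 192 FPKM in Brg1-deficient libraries, and the 8 macrophage markers summed to 110 to 241 FPKM and 82.5 to 224 FPKM. Whether these cells took part in the Fos values was not tested. Markers of epithelium (2.94 to 4.7 FPKM in sum), stroma (3.5 to 5.04), mast cells (6.71 to 11.04) and endothelium (63.7 to 89.6) stayed below 90 FPKM in all 4 libraries. The endothelium sum was nearly all Pecam1, at 62.3 and 87.9 FPKM and then 65.7 and 64.0 FPKM. Cdh5, Kdr and Emcn, the other markers of that list, were at or below 1.29 FPKM in every library.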

How the data were processed

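ILC3s sorted from the small intestine of mixed chimeras gave 4 RNA libraries, 2 per donor genotype. The authors aligned reads to GRCm38.p5 (STAR v2.5), estimated expression against the GENCODE M16 annotation (RSEM v1.2) and deposited FPKM per gene and library. In the deposited FPKM values, 13596 of 13693 sorted ranks with a mean above 1 (99.3%) differed by less than 1% between libraries, as quantile normalization gives, a step the sources used here do not name. Counts were not used here, so depth is unknown and no counting interval or floor was computed.

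Libraries were grouped by the sample labels. The 14739 genes whose mean FPKM exceeded 1 in at least 1 group were tested on log2(FPKM + 1) with limma 3.58.1 (lmFit, eBayes with trend, R 4.3.3) and Benjamini-Hochberg adjustment over all of them. A gene was called at an adjusted p under 0.05. The p-values measure the spread between these samples only, and an exact permutation test of 2 against 2 cannot go below 0.333. Groups do not overlap where both libraries of a group exceed both of the other. The members, gene lists and marker lists were chosen with earlier results of these data known, so their counts are descriptions. Named genes were the 10 members, every called gene of each list or otherwise its 4 largest log2 fold changes, and for Batf3 and Jund the 3 nearest protein-coding genes. Positions came from GENCODE M21 on GRCm38, and promoter sequences from RefSeq on GRCm38.p6.

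The alternatives were a pseudocount of 0.1, no filter, a mean FPKM above 5, limma without trend, quantile normalization, TPM scaling, the replicate number as a block and leaving out each library. Across genes, libraries that share a number deviated from their group means with a correlation of -0.00039, and no source says that the numbers pair the libraries. The fit was tested on simulated data. The study's ATAC-seq data were not analysed here. The driver of the Cre transgene is not reported here.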

Additional observations from a re-analysis of the deposited data

How the results depend on the processing

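Fosb, Batf, Batf3 and Atf3 kept a positive and Fosl2 and Jund a negative log2 fold change under all 11 alternatives, with ranges of 0.21 to 1.04, 0.45 to 0.74, 0.53 to 1.21, 0.32 to 0.66, -0.24 to -0.14 and -0.90 to -0.14. Leaving out 1 library turned the direction of the other 4 members, with ranges of -0.083 to 0.59 for Fos, -0.10 to 0.76 for Fosl1, -0.24 to 0.059 for Jun and -0.14 to 0.25 for Junb, and of the summed Fos proteins (-0.0032 to 0.68) and Jun proteins (-0.18 to 0.15). Of the reversals, the values were -0.0828 and -0.0758 for Fos, -0.0996 for Fosl1, 0.0588 and 0.00613 for Jun, -0.136 for Junb, -0.00316 for the Fos sum, and 0.152 and 0.00877 for the Jun sum. When an arm had 1 library left, limma took its spread from the other arm.

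Over all genes, 33 were called lower and 12 higher, against 73 and 41 with a mean FPKM above 5 (fewer genes tested), and 0 and 0 without the filter (1400 lower and 1308 higher at an unadjusted p under 0.05, 44235 genes tested), without the trend (965 and 903 unadjusted) or with any library left out (0 to 0, with 509 to 1331 lower and 521 to 1489 higher unadjusted). The 2 called genes with AP-1 sites fell to 0 without the filter, without the trend and with any library left out (0 to 0), and were 3 with a mean FPKM above 5 and 3 with the replicate block. The median of that list moved from -0.03 to 0.39 with a mean FPKM above 5, and the median of the AP-1 genes ran from 0.07 to 0.42 with 1 library left out.

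With the replicate block, 248 genes were called lower and 150 higher. Batf3 was then called higher (log2 fold change 0.87, adjusted p = 0.0406), the 1 member that was, with 1 member (Jund) lower at an unadjusted p under 0.05, and 1 gene each of the MAP kinase (Mapk9), the activator and partner (Irf8), and the AP-1 site lists (Il4) was called lower. The libraries share only a number. Members at an unadjusted p under 0.05 numbered 0 to 3 higher and 0 to 1 lower with 1 library left out, 0 higher without either Brg1-deficient library and 1 higher without the first Brg1-sufficient library. Where no construction is named, the cause was not tested. Depth is unknown, so the limit it sets on Fosl1, the lowest member, could not be given.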
